A study of Homo sapiens with 6 samples.

Results

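The genes described here encode the cadherins, which are calcium-dependent adhesion proteins, together with the desmosome proteins and the catenins that anchor cadherins to the cytoskeleton. They were chosen by name on an Affymetrix 3′ expression array: every probe set with a single gene symbol beginning with CDH and a digit, with PCDH, or with DSG or DSC and a digit, and the symbols JUP, DSP, PKP1 to PKP4, CTNNA1, CTNNB1 and CTNND1. This gave 85 genes of 19775 tested, carried by 159 of 41091 probe sets with 1 symbol, and a gene with several probe sets was read from the brightest one on average over the 6 arrays. The names include 3 pseudogenes of the protocadherin clusters and 2 non-coding genes, DSG2-AS1 and PCDH10-DT, which the rule takes by their symbols. CTNND1 and 16 other names of the families were found only on probe sets with several gene symbols and are not analysed here, and neither are CDH4 and CDH13.

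All samples came from CaSki, a long-established line of human cervical squamous carcinoma cells that carries integrated papillomavirus DNA, grown in serum-containing medium. One group of 3 samples received recombinant TGF-β1 at 2 ng/mL and the other group of 3 received medium without it. The study asked how this cytokine changes gene expression. A single line was used, the sources used here do not give the treatment time, and no label says whether the samples were separate cultures, so each p-value reflects how far these particular arrays scatter, which can be technical scatter alone.

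Classical cadherins join neighbouring cells at adherens junctions, where their cytoplasmic tails bind β-catenin (CTNNB1) or plakoglobin (JUP), and α-catenin (CTNNA1) links this complex to actin. In desmosomes the desmogleins and desmocollins play the same part, and plakoglobin, the plakophilins and desmoplakin (DSP) tie them to keratin filaments. In epithelial-mesenchymal transition, a response that TGF-β can start, cells are known to exchange E-cadherin for N-cadherin, and the transcription factors SNAI1, SNAI2, ZEB1 and ZEB2 are known repressors of E-cadherin.

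Values are log2 expression estimates made by the authors with RMA. The median over all probe sets lay between 4.15 and 4.18 on the 6 arrays, and the median gene level was 5.31. No detection call was used, and 66 members with a mean level below that median are called dim here, since RMA compresses differences of dim probe sets. The 3′ over 5′ signal, taken as the mean log2 ratio of the ACTB and GAPDH controls and read as a measure of RNA quality, was highest on the arrays numbered 1, at 1.19 (untreated) and 1.15 (treated) against 0.690 to 0.863 on the other arrays on that scale. The array numbered 1 was the lowest in both groups for 11 of the 85 members (12.9%, against 19.8% of all genes) and the highest in both for 15 (17.6%, against 13.0%).

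Of the 85 genes, 3 were higher and 2 lower with TGF-β1 (limma, Benjamini-Hochberg adjusted p below 0.05 over all genes), against 4.03% of all genes higher and 4.47% lower, and 80 members did not pass. That is 5.88% of the members, while 8.50% of all genes passed. These shares are not matched for level. Of the 1680 genes called, 1426 lie above the median gene level, where only 19 of the 85 members lie. The genes that rose were CDH16, which encodes kidney-specific cadherin, CDH2, which encodes N-cadherin, and JUP. Those that fell were PKP2, which encodes plakophilin 2, and CDH5, which encodes VE-cadherin. The median difference of the members was 0.04 (log2) against -0.0027 over all genes, and 67 members differed by less than 0.2 in either direction. Untreated and treated values did not overlap for 19 members (22.4%), against 29.2% of all genes. Of the 19 members above the median gene level 4 (21.1%) passed, against 14.4% of all genes above it. The groups did not overlap for 9 of these 19 (47.4%), against 43.5% of all genes above that level.

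**Figure D1:**
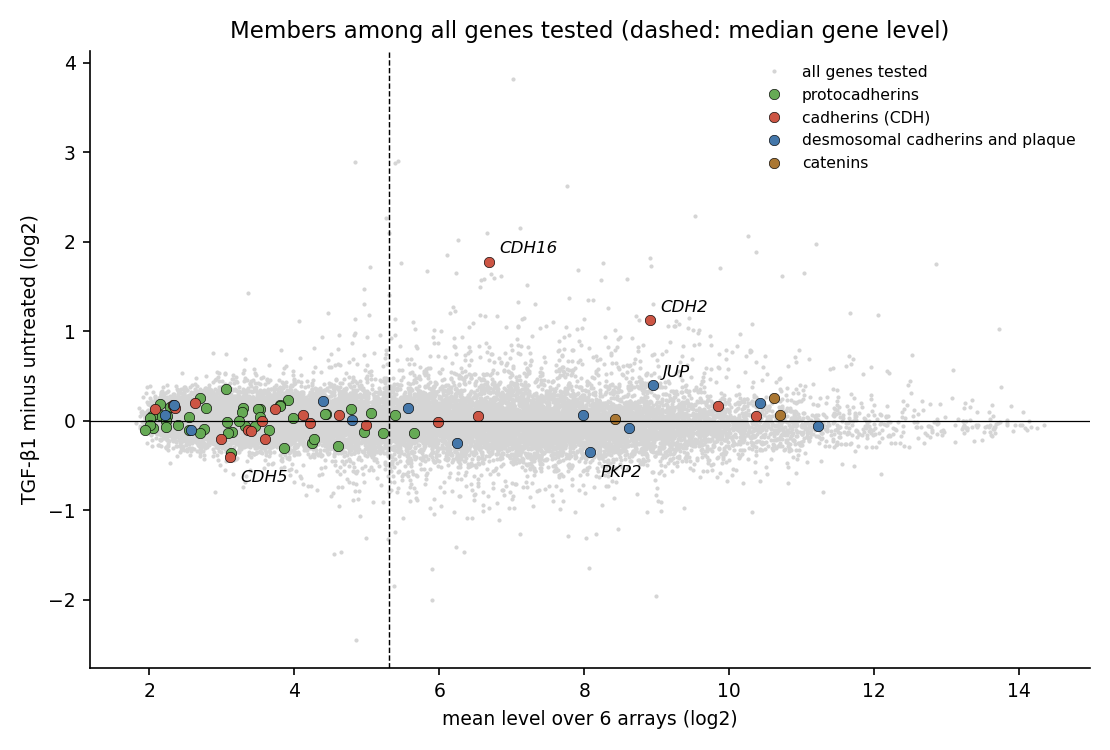
Each point is a gene, with its mean level over the 6 arrays (log2) on the horizontal axis and the difference of TGF-β1 minus untreated (log2) on the vertical axis; grey points are all 19775 genes and coloured points the 85 members by family. CDH16 at 1.77 and CDH2 at 1.12 stand above the other members, and most protocadherins lie left of the dashed median gene level.

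Among the type I classical cadherins, CDH2 rose and CDH1, which encodes E-cadherin, did not pass. CDH2 stood at 8.35, 8.34 and 8.36 on the untreated arrays and at 9.52, 9.38 and 9.52 on the treated arrays (log2). All treated values lay above all untreated values, and the gap was many times the spread within either group. The difference was 1.12 ± 0.07 (SE), a 2.18-fold rise (limma, adjusted p = 9.31e-05), and it stayed between 1.10 and 1.17 when each array was left out in turn, passing each time. The second CDH2 probe set, at a mean level of 6.60, differed by 0.74 (adjusted p = 0.0032; for every further probe set of a gene the p is adjusted over all probe sets with 1 symbol). Since these are bulk samples, more cells with a transcript and more transcript per cell cannot be told apart, here and for the other genes.

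CDH1 stood at 10.2, 10.4 and 10.4 without and at 10.3, 10.6 and 10.3 with TGF-β1 (log2), and the groups overlapped. Its difference was 0.06 ± 0.10 (SE; 95% interval from -0.17 to 0.28; limma adjusted p = 0.782). The other CDH1 probe set, at a dim mean level of 4.35, differed by -0.14 without passing (adjusted p = 0.438). CDH3, which encodes P-cadherin of basal squamous cells, differed by 0.17 ± 0.09 (SE, adjusted p = 0.314), from 9.63 to 9.86 untreated and 9.81 to 10.0 treated. CDH15, the muscle cadherin, was dim and differed by -0.05.

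Both CDH2 and CDH1 had already been read on these arrays, so the test below adds no independent support for an unequal change. It used the CDH2 minus CDH1 value of each array. This value was -1.89, -2.04 and -2.03 on the untreated arrays and -0.75, -1.19 and -0.82 on the treated arrays (log2). The 2 sets did not overlap, and the shift was 1.07 (exact two-sided permutation test over samples, p = 0.1, which is the smallest that 3 against 3 allows and cannot reach 0.05). Since the values come from different probe sets, the level of the value is not interpretable. The size of the shift also depends on the probe sets used, as the second CDH2 probe set differed by 0.74 and the dim CDH1 probe set by -0.14.

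The 250 bases before the RefSeq start site (GRCh38.p14) are shown for CDH2 and JUP, the members that rose and have an entry in the promoter table, and for DSG2 and DSP, the desmosome genes whose windows hold the E-box CACCTG at 2 places, the kind of site that SNAI2 is known to bind; this choice was made after the letters were seen. CDH1, CDH16, CDH5 and PKP2 are among the 21 members without an entry. Capitals mark CACCTG or its reverse complement CAGGTG and the SMAD-binding letters CAGAC or their reverse complement GTCTG, searched on both strands. The windows are chr18:28177131-28177380 (minus strand) for CDH2, chr17:41786712-41786961 (minus) for JUP, chr18:31497927-31498176 (plus) for DSG2 and chr6:7541421-7541670 (plus) for DSP. They are written 5′ to 3′ on the gene's strand, at the farthest upstream of the listed starts.
CDH2: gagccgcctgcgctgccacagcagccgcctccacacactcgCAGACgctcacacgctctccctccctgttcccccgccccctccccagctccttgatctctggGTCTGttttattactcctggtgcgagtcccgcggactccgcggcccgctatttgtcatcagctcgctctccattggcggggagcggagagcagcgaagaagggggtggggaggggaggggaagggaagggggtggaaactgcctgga
JUP: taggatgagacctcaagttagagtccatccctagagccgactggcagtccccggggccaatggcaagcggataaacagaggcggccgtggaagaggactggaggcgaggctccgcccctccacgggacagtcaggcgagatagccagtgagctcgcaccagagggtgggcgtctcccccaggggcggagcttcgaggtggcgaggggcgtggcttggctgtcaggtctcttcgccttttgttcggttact
DSG2: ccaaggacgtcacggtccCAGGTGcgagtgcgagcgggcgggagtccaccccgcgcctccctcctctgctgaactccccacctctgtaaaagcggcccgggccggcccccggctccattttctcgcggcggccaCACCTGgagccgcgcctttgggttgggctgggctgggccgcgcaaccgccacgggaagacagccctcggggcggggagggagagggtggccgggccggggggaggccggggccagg
DSP: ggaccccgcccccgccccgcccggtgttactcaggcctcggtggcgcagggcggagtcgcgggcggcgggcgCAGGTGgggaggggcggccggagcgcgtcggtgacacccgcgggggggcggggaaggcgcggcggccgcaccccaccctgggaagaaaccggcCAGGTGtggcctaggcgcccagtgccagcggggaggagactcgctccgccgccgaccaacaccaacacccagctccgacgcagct
The CDH2 window held the SMAD letters at 2 places, which begin 209 and 147 bases before the start, and no E-box. The JUP window held neither motif. The DSG2 window held the E-box at 232 and 116 bases before the start, and the DSP window at 178 and 85 bases. The windows of DSC2 and DSG1, not shown, held it at 1 place each. Of the 64 members with an entry, 7 windows (10.9%) held the E-box, against 17.5% of all 35116 windows of this length, and 27 (42.2%) held the SMAD letters, against 38.0%. Members were counted by 1 window per gene and the background by every listed start, and base content was not matched. A match is a description of letters and not of binding.

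**Figure D2:**
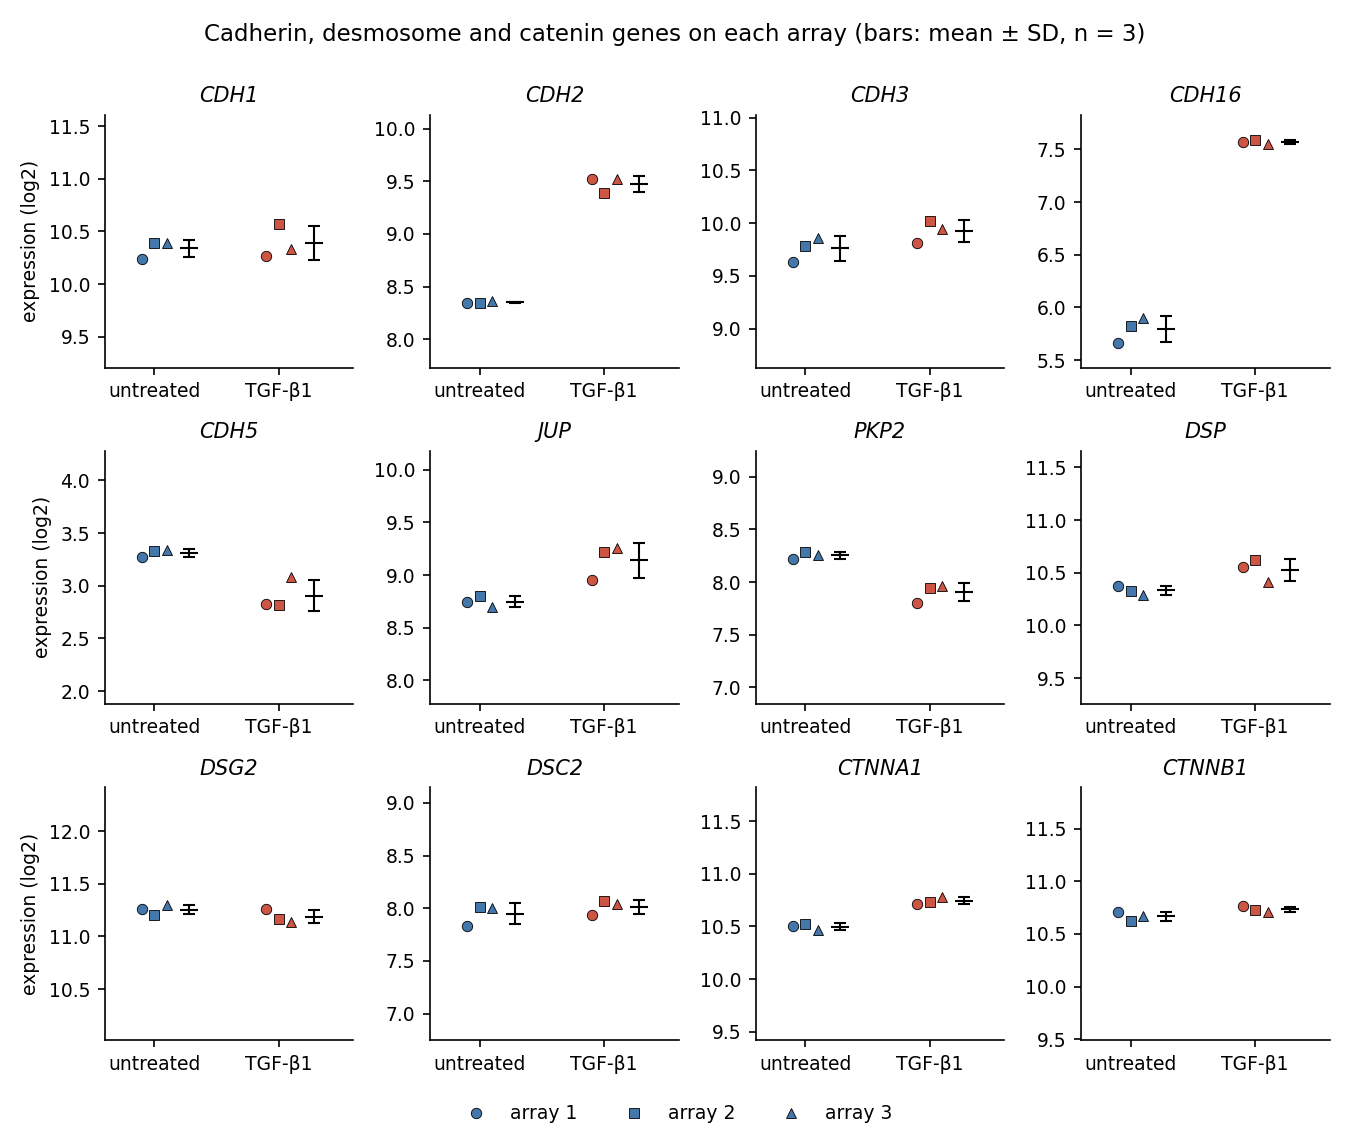
Expression (log2) of 12 members on each array, with untreated samples in blue and TGF-β1-treated samples in red, marker shapes for array numbers 1 to 3, and the mean ± SD (n = 3) beside the points; each panel spans the same range of the log2 scale. CDH16 and CDH2 show the wide gaps, JUP, PKP2, CDH5 and CTNNA1 show narrow gaps without overlap, and CDH1, DSG2 and DSC2 overlap between groups.

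CDH16 showed the largest difference of all 85 members. It belongs to the cadherins with a short cytoplasmic tail and is known from kidney and thyroid epithelium. Its probe set read 5.66, 5.83 and 5.90 in untreated and 7.57, 7.59 and 7.55 in treated samples (log2). The treated values lay within hundredths of each other and all above the untreated values. The difference was 1.77 ± 0.08 (SE), a 3.42-fold rise (limma, adjusted p = 1.9e-05), between 1.71 and 1.83 when each array was left out in turn, and it passed each time. CDH16 has 1 probe set with a single symbol, so the rise could not be compared with another probe set. The other CDH genes outside types I and II, CDH23, CDH26 and CDH17, were dim and differed by 0.06, -0.03 and -0.20 without passing. CDH17 encodes the liver-intestine cadherin and CDH23 a cadherin of hair-cell tip links.

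Type II cadherins were mostly dim. Of 13 members, 11 had mean levels below the median gene level, and the median difference was 0.06 (log2). The count called was 1, against 8.50% of all genes. The 1 that passed was CDH5, the cadherin of endothelial junctions, at 3.27, 3.33 and 3.34 untreated and 2.83, 2.82 and 3.08 treated, without overlap. It was 1.33-fold lower (-0.41 ± 0.09, SE, limma adjusted p = 0.0299), but both groups lay below the median of all probe sets, so the size is uncertain, and the call was lost without any 1 of untreated arrays 1, 2 and 3 and treated arrays 1 and 2 (adjusted p up to 0.104). The endothelial markers PECAM1, VWF, TIE1, EMCN and CLDN5 differed by 0.04, 0.08, 0.17, 0.15 and -0.13 without passing, and their summed signal ran from 6.83 to 6.90 untreated and from 6.74 to 6.98 treated (log2 of the sum). CDH11, a mesenchymal cadherin, differed by -0.01 at a dim level of 3.56, with a 95% interval from -0.16 to 0.15. CDH22 and CDH24, the 2 type II members above the median gene level, differed by 0.05 and -0.02.

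Desmosomal cadherins did not pass as single genes. None of 7 desmogleins and desmocollins was called by limma, against 8.50% of all genes. An unadjusted p below 0.05 was found for 1, DSC3, against 23.2% of all genes. DSG2, the broadly expressed desmoglein, read 11.3, 11.2 and 11.3 untreated and 11.3, 11.2 and 11.1 treated, with a difference of -0.07 (95% interval from -0.23 to 0.10). Its second probe set differed by -0.06. DSC2, the partner desmocollin of simple and lower squamous layers, differed by 0.07 (95% interval from -0.12 to 0.25), and its other 3 probe sets by 0.01, -0.02 and -0.11.

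DSC3, the desmocollin of basal squamous layers, read 6.22, 6.34 and 6.55 untreated and 6.19, 6.06 and 6.10 treated. The groups did not overlap, by a margin of a few hundredths between the highest treated and lowest untreated array, and the difference of -0.25 ± 0.10 (SE) did not pass (limma, adjusted p = 0.163). On the next DSC3 probe set, with a mean of 5.53, the difference was -0.26 (adjusted p = 0.133), and on the dimmest, at 3.65, it was 0.05. DSG3, the main desmoglein of basal keratinocytes, differed by 0.01 on a dim probe set at 4.80 and by -0.35 on another at 4.79 (adjusted p = 0.982 and 0.218), so these probe sets disagree. DSG1, DSG4 and DSC1, which mark upper epidermal layers and hair, had mean levels of 2.21, 2.57 and 2.34 and differed by 0.06, -0.10 and 0.18. The non-coding DSG2-AS1 differed by 0.14 (adjusted p = 0.247), and its 2 dimmer probe sets by -0.22 and 0.20.

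In the order of protein-coding genes on chromosome 18 in the RefSeq table (GRCh38.p14), CDH2 is followed by DSC3, DSC2, DSC1, DSG1, DSG4, DSG3 and DSG2. CDH2 was the 1 gene of this row that passed, against 8.50% of all genes. The other 7 differed by -0.25 to 0.18 (log2), and of them DSC1, DSG1, DSG4 and DSG3 were dim. On the other side of CDH2, CHST9 differed by -0.02. On chromosome 16, the genes next to CDH16 that were measured were RRAD, a small GTPase, which was 1.94-fold higher (limma, adjusted p = 0.00328), then CIAO2B at 0.04, and CES2, a carboxylesterase, which was 2.09-fold higher (adjusted p = 0.00171). On the other side of CDH16, CA7 and NAE1 differed by 0.01 and -0.05. CDH3 and CDH1, which are neighbours on the same chromosome, differed by 0.17 and 0.06. Near them ZFP90, a zinc finger gene, was 1.32-fold higher (adjusted p = 0.0368) and HAS3, a hyaluronan synthase, 1.72-fold lower (adjusted p = 0.0488).

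The desmosomal plaque held a rise and a fall. Plakoglobin (JUP), which also binds classical cadherins, read 8.74, 8.80 and 8.70 untreated and 8.95, 9.22 and 9.26 treated, with no overlap and with treated array 1 nearest to the untreated arrays. It rose 1.31-fold (0.39 ± 0.10, SE, limma adjusted p = 0.0435), and the adjusted p was 0.114, 0.0974, 0.142, 0.129 and 0.122 without untreated arrays 1, 2 and 3 and treated arrays 2 and 3, and 0.0515 after median centring of the arrays. PKP2, the plakophilin of simple epithelia and of the heart, read 8.22, 8.28 and 8.26 untreated and 7.80, 7.94 and 7.96 treated. It was 1.275-fold lower (-0.35 ± 0.07, SE, limma adjusted p = 0.0268), and the call was lost whichever array was left out (adjusted p from 0.0535 to 0.0971), while the difference stayed between -0.38 and -0.30. Its second probe set, dim at 4.52, differed by 0.10 (adjusted p = 0.713), and the mean of both by -0.13 (adjusted p = 0.424). The JUP minus PKP2 value was also computed, the second of 2 pairs, but both genes had already been called in opposite directions, so it is not given as a test; the p of the CDH2 and CDH1 pair adjusted over both was 0.1.

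The other plaque genes did not pass. Desmoplakin (DSP), which binds keratin filaments, read 10.4, 10.3 and 10.3 untreated and 10.6, 10.6 and 10.4 treated, without overlap (0.20 ± 0.08, SE, limma adjusted p = 0.181), and passed with a trended robust variance (adjusted p = 0.0393). PKP3, a plakophilin found in most desmosomes, differed by -0.09 without overlap (adjusted p = 0.513). On its other probe set, at a level of 5.72, the difference was 0.22. PKP1, the plakophilin of stratified epithelium, was dim at 4.40 and differed by 0.22 (adjusted p = 0.418), with treated arrays between 4.19 and 4.82; without treated array 2 the difference was 0.07, and without treated array 3 it was 0.38.

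**Figure D3:**
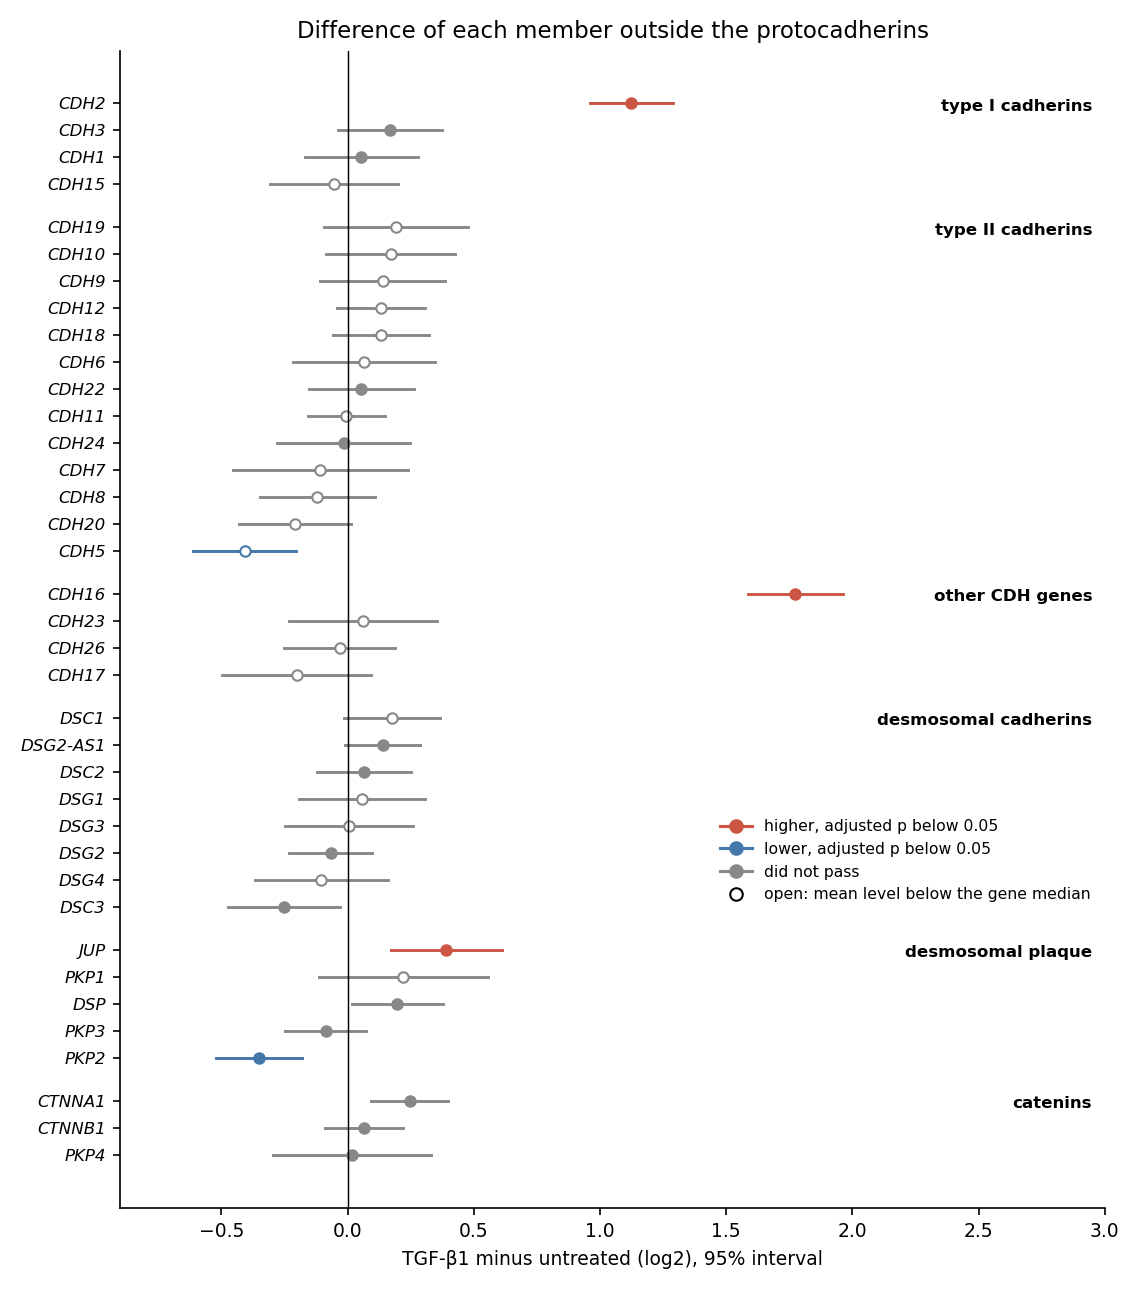
The difference of TGF-β1 minus untreated (log2) with its 95% interval for the 37 members outside the protocadherins, grouped by role; red and blue mark genes that were higher or lower at an adjusted p below 0.05, grey those that did not pass, and open points a mean level below the median gene level. CDH16, CDH2 and JUP lie right of 0 and PKP2 and CDH5 left of it, and of the genes that did not pass the intervals of CTNNA1 and DSP lie above 0 and that of DSC3 below it.

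Of the catenins, none of 3 was called by limma, against 8.50% of all genes and 14.4% of those above the median gene level. All 3 lie above that level. The count with an unadjusted p below 0.05 was 1 (33.3%), against 23.2% of all genes and 33.4% of those above it. The catenin with such a p was CTNNA1, which encodes α-catenin. It read 10.5, 10.5 and 10.5 untreated and 10.7, 10.7 and 10.8 treated, without overlap. It differed by 0.25 ± 0.07 (SE, 95% interval from 0.09 to 0.40, limma adjusted p = 0.0602). It passed after repeated quantile normalisation (adjusted p = 0.0424), with array weights (0.0459), with a trended robust variance (0.00274) and among genes above the median level (0.0123). It did not pass with median centring (0.0723), the mean of probe sets (0.108), the 3′ over 5′ covariate (0.0597) or the replicate block (0.0953), nor when any array was left out (0.0792 to 0.179). Its main probe set carries a suffix for shared sequence, and the 1 without a suffix, at 4.69, differed by -0.01. A second bright CTNNA1 probe set differed by 0.26, another at 6.24 by 0.44 (adjusted p = 0.0208) and one at 8.31 by 0.05, so the probe sets of this gene differ in size.

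β-catenin (CTNNB1), which also transmits Wnt signals, differed by 0.06 (95% interval from -0.09 to 0.22), and its other probe sets, at levels of 6.33 and 3.96, by -0.12 and -0.27. PKP4, a p120-catenin relative at junctions, read 8.26, 8.44 and 8.53 untreated and 8.14, 8.48 and 8.67 treated, so that the array numbered 1 was lowest in both groups; the same arrays had the highest 3′ over 5′ signal. The part of RNA quality in this spread was not tested. PKP4 differed by 0.02 on this probe set and by -0.30 and -0.41 on probe sets at levels of 8.29 and 7.12 (adjusted p = 0.0734 and 0.0857), a disagreement among bright probe sets of the same gene.

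**Figure D4:**
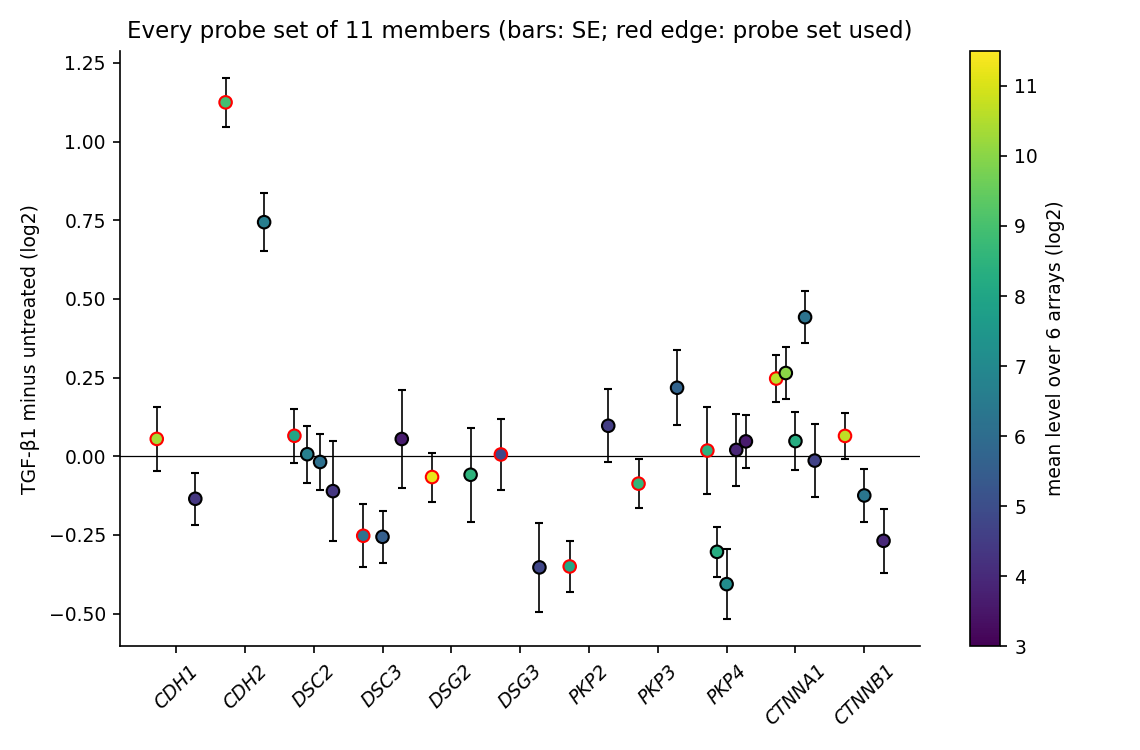
The difference of TGF-β1 minus untreated (log2, bars: SE) for every probe set of 11 members, ordered within each gene from bright to dim; colour gives the mean level over 6 arrays (log2) and a red edge the probe set used for the gene. Both CDH2 probe sets lie above 0.7, both DSG2 probe sets near 0, and those of PKP4 and CTNNA1 spread widely.

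Protocadherins, which are known mainly from the nervous system, made up 48 of the 85 members. None was called by limma on the probe set used for the gene, against 8.50% of all genes. An unadjusted p below 0.05 was found for 6 (12.5%), against 23.2% of all genes. Of the 48, 46 lie below the median gene level. Of all genes above it 33.4% had such a p. That level holds 3300 of the 4584 genes with such a p, and 1426 of the 1680 called, above it. These shares are therefore not matched for level, and the lower shares of the protocadherins are not read as a result. The 36 genes of the α, β and γ clusters were all dim, with mean levels between 2.04 and 5.22, and their differences ran from -0.31 to 0.25 with a median of 0.04 (log2). The largest of these were PCDHA5 (-0.31, adjusted p = 0.0856), the pseudogene PCDHB18P (-0.28, adjusted p = 0.0682) and PCDHA2 (0.25, adjusted p = 0.21). PCDHB18P is read by a probe set whose suffix marks shared sequence, and its other probe set differed by 0.13. PCDHA10 differed by -0.25 (adjusted p = 0.158) and by -0.34 without treated array 1 (adjusted p = 0.0442). PCDHA2 differed by 0.14 without untreated array 2. Genes of the α cluster share their 3′ constant exons with each other, as do those of the γ cluster, so a 3′ probe set can read more than 1 of them.

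Of the 12 protocadherins outside the clusters, PCDH1, an epithelial protocadherin, and PCDH12 lay above the median gene level and differed by -0.14 and 0.06. PCDH9 differed by -0.37 at a level of 3.12 (adjusted p = 0.124), but by -0.09, 0.00 and -0.08 on its 3 dimmer probe sets. PCDH18 differed by 0.13 (adjusted p = 0.389), while its dimmer probe set was higher by 0.48 and passed on its own (adjusted p = 0.0451). PCDH19 differed by 0.35 (adjusted p = 0.407), and this rested on treated array 1 at 3.82, with the other treated arrays at 3.06 and 2.81; without that array the difference was 0.05.

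Other genes of cell junctions were taken from 3 lists. Of 19 junction partners 3 rose and 2 fell, with a median difference of -0.02 (log2). Of all genes 8.50% passed, and 14.4% of those above the median gene level, where 13 of these partners lie; of the repressor list 7 of 10 genes and of the other superfamily genes 7 of 17 lie there. The rises were those of ACTN4 and ACTN1, which encode the actin crosslinkers α-actinin 4 and 1, at 1.77-fold and 1.43-fold, and VCL, which encodes vinculin, at 1.73-fold. They passed whichever array was left out. AFDN, which encodes the nectin-binding protein afadin, was 1.30-fold lower and the α-catenin relative CTNNAL1 1.25-fold lower. AFDN no longer passed when untreated array 2 or 3 or treated array 2 was left out (highest adjusted p 0.0712). CTNNAL1 no longer passed when any array but treated array 1 was left out (highest adjusted p 0.128).

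Of 10 measured repressors and processing enzymes of cadherins, 1 rose, SNAI2, which encodes Slug, at 2.11-fold. SNAI1, ZEB1, ZEB2 and TWIST1 differed by 0.20, 0.00, 0.01 and -0.08 without passing. Their mean levels were 4.93, 3.33, 3.40 and 5.82, so all but TWIST1 were dim. ADAM10, the protease that sheds E-cadherin and N-cadherin, differed by 0.20 (adjusted p = 0.21). Of 17 measured superfamily genes with other names, 2 rose. CELSR1, a cadherin of planar cell polarity, read 6.53, 6.39 and 6.34 untreated and 7.59, 7.84 and 7.79 treated, a 2.50-fold rise (1.32 ± 0.09, SE, limma adjusted p = 1.59e-04), which passed whichever array was left out. CLSTN1, which encodes calsyntenin 1, rose 1.27-fold, and no longer passed when any array but treated array 1 was left out (highest adjusted p 0.132). The giant cadherin FAT1 differed by 0.04.

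The labelled cell type was checked on the same arrays. CDH1, CDH2 and JUP all had mean levels above the median gene level, as did KRT5, KRT14, SFN and EPCAM of squamous and other epithelium and CDKN2A, a marker of papillomavirus-positive carcinoma. All 5 fibroblast markers, all 4 immune markers and all 3 measured melanocyte and nerve markers lay below it, and so did 4 of 5 endothelial markers, PECAM1 being the exception. None of these 17 passed, against 8.50% of all genes. That share is not matched for level, as 1426 of the 1680 genes called lie above the median gene level. The summed signal of the fibroblast markers ran from 6.17 to 6.34 untreated and from 6.33 to 6.47 treated (log2 of the sum). Of the epithelial markers, KRT14, a basal keratin, was 1.71-fold higher (limma, adjusted p = 0.0027) and EPCAM, an epithelial adhesion molecule, 1.62-fold lower (adjusted p = 9.48e-04); KRT5 and SFN differed by 0.20 and 0.02. The part of these markers in the cadherin differences was not tested.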

How the data were processed

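Expression was measured in 3 untreated and 3 TGF-β1-treated CaSki samples on arrays of 54675 probe sets. The deposited values are log2 estimates made by the authors with Affymetrix Expression Console and RMA, per the submitters' processing notes; no version of either is given in the sources used here, and the log2 scale was read from the values (1.57 to 14.5). Symbols came from the platform annotation and RefSeq. Treated and untreated arrays were set against each other in R 4.3.3 by limma 3.58.1 (lmFit, then eBayes, without covariates or a filter on low values), with p-values adjusted over 19775 genes. On simulated data made from these genes, the fit recovered 64% of 100 genes changed 1.5-fold and 90% of 100 changed 2-fold, 6.1% of its calls were false, and it made 0 calls with no gene changed. The noise was drawn independently for each gene, and fewer genes were changed than the 1680 called in the data. No fold below 1.5 was simulated, so these rates do not cover JUP, PKP2 and CDH5, which changed less.

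The members and lists were chosen with earlier results of these data known. Named genes are every called member, a set of main cadherins, desmosome genes and catenins, members above the median gene level, and the 3 largest uncalled differences in each direction. CDHR4, KRT17, KRT6A and TP63 of the lists are not analysed here. Of the other lists, called genes and SNAI1, SNAI2, ZEB1, ZEB2 and TWIST1 are named. Neighbouring genes, CDH15, CDH17, CDH23, CDH26, PCDH18, PCDHA10, ADAM10 and FAT1 were named outside this rule, after their values were seen. The number of arrays limits the precision.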

Additional observations from a re-analysis of the deposited data

How the results depend on the processing

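CDH16 and CDH2 kept their direction and passed under all alternatives run. The 5 members called became 6, 4, 4, 7, 6 and 5 with repeated quantile normalisation, median centring, the mean of probe sets, a trended robust variance, array weights and the 3′ over 5′ signal as covariate, 3 without suffixed probe sets (which leaves no probe set for JUP and PKP2), 2 to 4 when 1 array was left out, 2 without both arrays numbered 1, and 2 when tested against a fold of 1.2. With each probe set on its own, an alternative chosen after seeing the data, it was 6, of which 4 were among the 5. JUP was lost (limma, adjusted p = 0.0664), and CTNNA1 and PCDH18 passed on probe sets other than those used for the genes. The 1680 genes called became 2553 among genes above the median level, 1004 without suffixed probe sets, 2629 with a trended robust variance, 768 to 1326 when 1 array was left out, 627 without both arrays numbered 1, and 327 against a fold of 1.2. The 8 other junction genes called became 5 to 8 when 1 array was left out, 5 without both arrays numbered 1 and 4 against a fold of 1.2.

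Same-numbered samples correlated at 0.20, 0.056 and 0.0907 in their deviations from the group means, which is at most 0.1 in all but 1 pair, so the numbers were not taken to pair the samples. With the replicate number as a block, 1280 genes, 4 members and 6 other junction genes were called, and JUP had an adjusted p of 0.0651.

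Differences that turned sign belonged to genes that did not pass, and the cause was not tested. With the mean of probe sets, CDH1 was at -0.04, CDH11 at 0.0709, CDH22 at -0.0547, CDH24 at 0.0356, CTNNB1 at -0.1096, DSC2 at -0.0144, DSG3 at -0.1737, PKP3 at 0.0653 and PKP4 at -0.1249. Without suffixed probe sets, CDH11 was at 0.1285, CTNNA1 at -0.0138, DSG2-AS1 at -0.2213, PCDHB18P at 0.1348 and PKP4 at -0.3037. With 1 array left out, the difference ran from -0.0353 to 0.1159 for CDH1, from -0.0216 to 0.0117 for CDH11, from -0.0202 to 0.1306 for CDH22, from -0.133 to 0.0539 for CDH24, from -0.0468 to 0.1502 for DSG1, from -0.0821 to 0.1188 for DSG3, from -0.0291 to 0.1282 for PCDH12 and from -0.1009 to 0.1608 for PKP4. Without both arrays numbered 1, DSG3 was at -0.0398 and PCDH12 at -0.0279, and with the covariate DSG3 was at -0.0344 and PKP4 at -0.0455. With 3 arrays a group, and with 66 of the members dim, small differences were not resolved.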
